A study of Drosophila melanogaster with 33 samples.

Results

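RNA editing levels were described at 299 intron sites of 58 Drosophila melanogaster gene entries that also hold at least 1 listed exon site. These intron sites are 299 of 1350 listed sites, and they were chosen from the intron or exon label and the gene identifier in the deposited table, not from a measured level. The same 58 entries hold 232 exon sites. A further 430 intron sites lie in 141 entries with no listed exon site. The intron or exon label is the authors' own and was not checked here against an annotation of the build. The table gives neither strand nor edited base.

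All levels compared between intron and exon sites come from nascent RNA of fly heads, that is, RNA still bound to chromatin. ADAR0 males lack the editing enzyme ADAR, and 2 libraries of them were pooled. FM7a males, which carry an X chromosome balancer and ADAR, and yw (yellow white) males, which also carry ADAR, were likewise pooled from 2 libraries each. The male libraries were small preparations of 40 to 45 heads. The other nascent RNA came from yw flies kept in cycles of 12 hours of light and 12 hours of dark and taken at ZT 2, 6, 10, 14, 18 and 22 (hours after lights on) in 2 replicate sets of 6 libraries. All flies were labelled as 3 to 4 days old. Per the labels, polyadenylated RNA was removed from every nascent sample, and set 1 was also depleted of ribosomal RNA. Levels in mRNA of yw heads, from 2 polyadenylated libraries taken at ZT 2 and 14, served only to divide the exon sites. The light:dark pools and the male pools differ in scale of preparation and sequencing instrument, and sex is given for the males alone, so these cannot be told apart between them.

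ADAR converts adenosine to inosine in double-stranded RNA, and sequencing reads inosine as guanosine. In flies the duplex around an exonic site often forms with a complementary stretch of a neighbouring intron, so that editing can take place before the intron is spliced out. Fly ADAR acts mainly in neurons, and many of its known exonic targets encode ion channels and proteins of the synapse. Intron sites themselves are lost from the mature message.

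The editing level of a site is the deposited share of reads with the edited base, in percent. The reads behind each level are not given, so the precision of a single level is unknown, and of a 0 it can be said only that it is the listed value. The yw light:dark sets gave the sole replicate spread. Between them the SD of a level was 4.24 percentage points at the 299 intron sites and 3.85 points at the 232 exon sites. At 28 of the 299 intron sites the sets differed by more than 10 points, against 11% of all listed sites. Genomic DNA of yw flies covered the intron sites with 19 to 92 reads and a median of 47. Each male group has 1 pooled level and the light:dark group has 2 sets. Even 2 values against 2 cannot give an exact two-sided permutation p under 0.33, so the comparisons were described by their values and not tested.

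Intron sites were edited at lower levels than exon sites of the same genes, on the whole, but the genes differed widely. The 299 intron sites had a median level of 17% in the pool of all 12 light:dark libraries, with quartiles of 11% and 30.5% and a range of 4% to 89%. The 232 exon sites had a median of 31.5%, with quartiles of 13% and 60% and a range of 4% to 95%. Levels of 50% or more were reached by 30 intron sites in 16 genes, which is 10% of them, and by 69 exon sites, or 29.7%, against 14.9% of all listed sites. The lower quartiles lay close together and the upper quartiles far apart, so the classes differed mainly in their highly edited sites.

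Gene by gene, the median level of the intron sites lay below that of the exon sites in both replicate sets in 37 of 58 genes (63.8%) and above it in both sets in 13 (22.4%). In the remaining 8 the sets gave opposite signs or a tie. The difference of medians, intron minus exon, had a median over genes of -9.75 points in set 1 and -9.25 points in set 2 (-9.5 ± 0.35, SD, n = 2), and of -8.5 points in the pool of all 12 libraries. In 31 of the 37 lower genes the intron median was also below the exon median in FM7a males and in yw males. Of the 13 higher genes, 3 were higher in both male pools as well. In the pool of all 12 libraries every intron site lay below every exon site in 19 genes (32.8%), among them 7 with 1 site of each kind. In 6 genes (10.3%) every intron site lay above, among them 2 with 1 site of each kind. Of these 6, only CG11155 had more than 1 exon site.

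**Figure D1:**
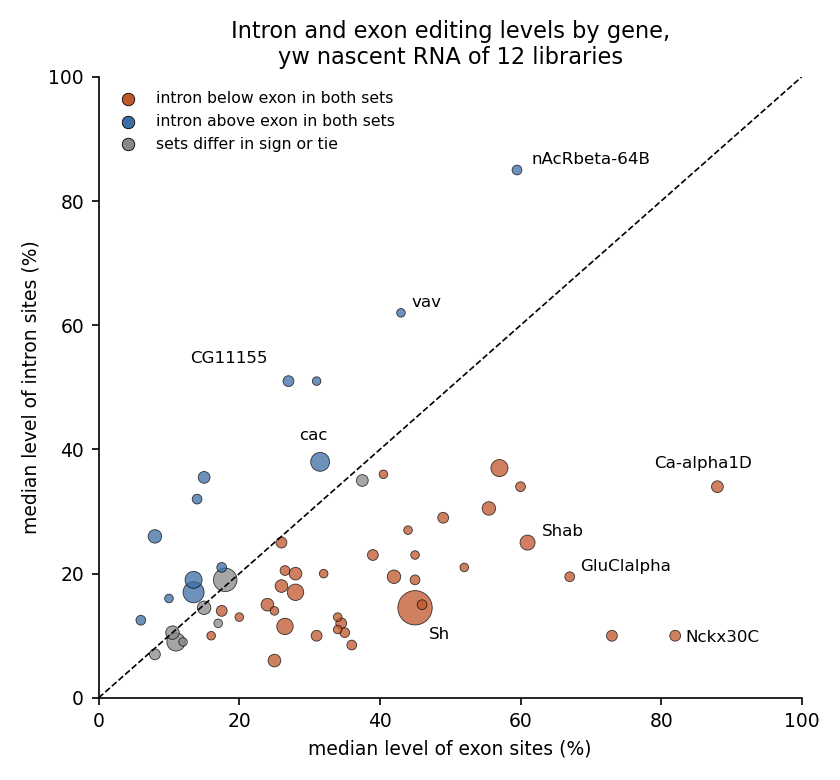
Median editing level of the intron sites (vertical axis, percent) against that of the exon sites (horizontal axis, percent) in the pool of 12 yw light:dark libraries, with 1 point for each of the 58 genes, its area growing with the number of intron sites, and the dashed line marking equal levels. Of these genes, 37 lay below the exon level in both replicate sets and 13 above it, with Nckx30C farthest below the line and nAcRbeta-64B, vav and CG11155 among those above.

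The exon sites themselves fell into more and less edited ones by whether they are listed in mRNA. A level in mRNA of yw heads (pooled from 2 polyadenylated libraries) is listed for 103 of the 232 exon sites and for 0 of the intron sites, and those 103 had a median nascent level of 55%, against 14% at the other 129. Leaving out the 103 removes the more highly edited exon sites and no intron site, so the difference has to shrink. In the 47 genes that then still held both kinds of site, the median difference was -0.5 points and 18 were lower in both sets. The other 11 genes, of which 10 had been lower in both sets, dropped out. Set against the nearest exon site alone, the intron level was lower at 155 sites and higher at 136, with 8 ties and a median of -1 point for the intron minus exon difference. This balance differed by distance. At 500 to 1000 bases the intron level was lower at 27 sites and higher at 15, and at 1000 to 2000 bases at 32 and 14. At 2000 to 5000 bases it was lower at 19 sites and higher at 29, and at 5000 to 10000 bases at 22 and 21. Beyond 10000 bases it was lower at 34 sites and higher at 49. The 24 sites of the gene Sh in that class all had the same nearest exon site, at 6%. They were themselves at 6% to 31%, so none was lower than that exon site. Without Sh, more sites of that class were lower than higher.

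The intron sites were concentrated in few genes. The 10 genes with the most held 170 of the 299, or 56.9%, while 15 genes had 1 intron site each. By chromosome, 121 intron sites in 19 genes were X-linked, 52 lay on 3R, 45 on 2L, 34 on chromosome 4, 25 on 3L and 22 on 2R. Median levels by chromosome were 18% on X, 12% on 3R, 25% on 2L, 17% on chromosome 4, 26% on 3L and 15% on 2R.

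The potassium channel gene Sh (Shaker, chromosome X), whose product carries a fast inactivating current, held 52 of the intron sites beside 6 exon sites. Its intron sites had a median of 14.5% and its exon sites 45%, with intron minus exon differences of -31.5 and -27.5 points in sets 1 and 2, -22.5 in FM7a males and -29.5 in yw males. Of the 52 sites, 49 were under 50%. The 8 sites within 1000 bases of an exon site had a median of 23.5%, the 20 at 1000 to 10000 bases 15.5%, and the 24 beyond 10000 bases 12.5% with a range of 6% to 31%. The level was 74% at position 17824923 and 13% at position 17824925, only 2 bases away. In ADAR0, FM7a and yw males position 17824923 was at 0%, 69% and 75%, and position 17824925 at 0%, 15% and 17%, so the order held in both control strains. In FM7a males 19 of the 52 sites were listed at 0, and in yw males 6.

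In the sodium channel gene para (chromosome X), by contrast, intron and exon sites had nearly the same level. Its 23 intron sites had a median of 19% and its 23 exon sites 18%, and the difference was 0 points in both sets, 0 in FM7a males and -2 in yw males. The range was 5% to 89% over introns and 5% to 82% over exons. The intron site with the highest level of all 299 was in para at position 16362595, with 0% in ADAR0, 89% in FM7a and 100% in yw males and with 84% and 93% in sets 1 and 2. Directly beside it, position 16362596 was at 0% in ADAR0, 0% in FM7a and 22% in yw males and at 18% and 20% in the sets. Another neighbouring pair of para showed 30% at position 16360231 and 71% at position 16360232 in the pool of 12 libraries.

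The presynaptic calcium channel gene cac (chromosome X) had 14 intron sites with a median of 38% and 12 exon sites with a median of 31.5%. The intron median was above the exon median by 6 points in each set, but in males it was 0% in introns against 24% in exons for FM7a, and 0% against 35% for yw. Of the 14 intron sites, 9 were listed at 0 in FM7a males, and 7 of the 13 with a yw male level were at 0, while 0 exon sites were at 0 in yw males. No ADAR0 level is listed for 3 of the 14, and these 3 are among the 7 at 0 in yw males. Part of the cac intron sites were edited in males too, since position 11861745 was at 40% in FM7a and 58% in yw males and at 38% and 39% in the sets.

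Shab, which encodes a delayed rectifier potassium channel (chromosome 3L), had 8 intron sites with a median of 25% and 11 exon sites with a median of 61%. Its highest intron site was at 40%, whereas its exon sites reached 92%. The difference was -37 and -35.5 points in sets 1 and 2, -16.5 in FM7a males and -16 in yw males.

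Among genes of vesicle release, unc-13, whose product primes vesicles for fusion (chromosome 4), had 18 intron sites with a median of 17% and 6 exon sites with a median of 13.5%. The unc-13 difference was 2.5 and 4 points in the sets, -2 in FM7a males and 4.5 in yw males. Caps, a gene of dense core vesicle secretion (chromosome 4), had 10 intron sites with a median of 11.5% and 2 exon sites with a median of 26.5%, and the difference was -16.5 and -11.5 points in the sets. Syt1 (chromosome 2L) encodes the calcium sensor of vesicle fusion. In the light:dark pool its 6 intron sites all lay below its 3 exon sites, at 8% to 40% against 41% to 84%. The Syt1 difference was -21 and -22.5 points in the sets, -5 in FM7a males and -7.5 in yw males. The separation did not hold in males. The intron site at position 2784071 was at 38% in FM7a and 45% in yw males, and the exon site at position 2785610 at 17% and 27%.

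The nicotinic receptor subunit gene nAcRalpha-30D (chromosome 2L) had 11 intron sites with a median of 37% and 6 exon sites with a median of 57%. Its difference was -18 and -22.5 points in sets 1 and 2, -58 in FM7a males and -25 in yw males. None of the 11 intron sites was found in all 4 control male libraries, a count of 0, beside 31.1% of all 299. Of the 11, 6 were listed at 0 in FM7a males and 4 in yw males. The splicing factor gene ps (pasilla, chromosome 3R) had 13 intron sites at a median of 9% and 2 exon sites at 11%, and its sets gave differences of 0 and -4.5 points. CG42540 (chromosome 3L) had 11 intron sites at a median of 19% and 12 exon sites at 13.5%. Among the 5 highest intron sites of all was that of CG42540 at position 4584249, with 0% in ADAR0, 75% in FM7a and 89% in yw males and with 88% and 79% in the sets. CG13739 (chromosome 2R) had 10 intron sites at 17% and 1 exon site at 28%.

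**Figure D2:**
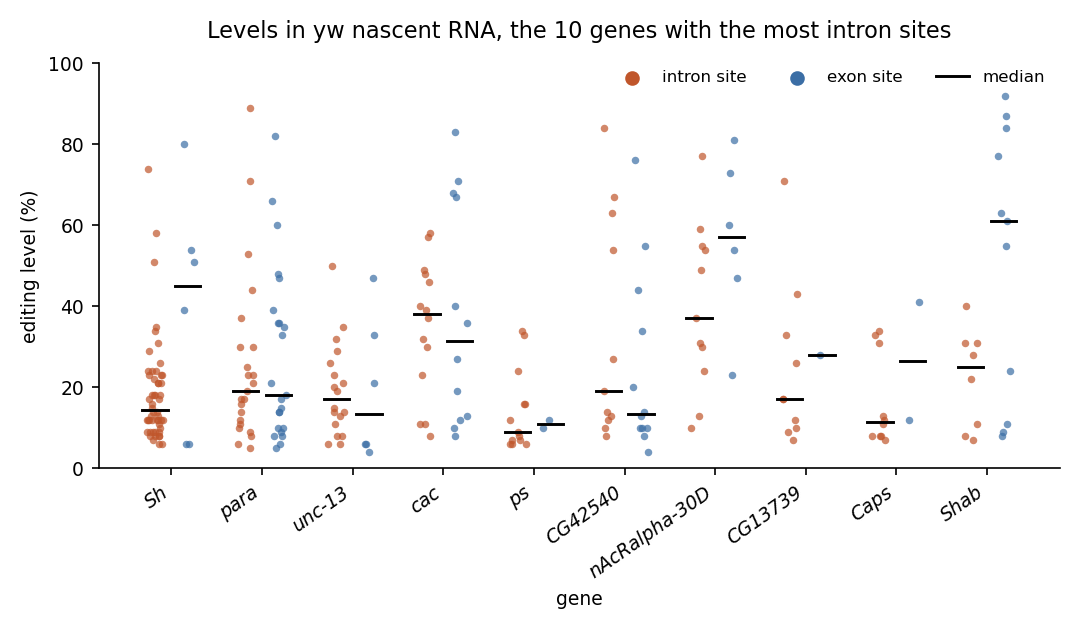
Editing level in percent (vertical axis) of every intron site and every exon site of the 10 genes with the most intron sites, in the pool of 12 yw light:dark libraries, with a bar at each median. Most of the 52 intron sites of Sh lie under its exon median of 45%, while the 23 intron and 23 exon sites of para spread over the same range.

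The largest differences among the 34 genes with 2 or more sites of each kind lay on the side of lower introns. Nckx30C, which encodes a sodium, calcium and potassium exchanger, had 3 intron sites at 32%, 7% and 10% and 3 exon sites at 82%, 33% and 86%, and the difference of medians was -73 and -69 points in sets 1 and 2, -73 in FM7a males and -61 in yw males. Ca-alpha1D, a calcium channel gene, had intron sites at 15%, 21%, 47% and 49% and an exon median of 88% over 7 sites, with differences of -60 and -47 points in the sets. All 4 of its intron sites were found in all 4 control male libraries, beside 31.1% of all 299. GluClalpha, the gene of a glutamate-gated chloride channel, had 2 intron sites at a median of 19.5% and 4 exon sites at 67%. Shab followed, and then mmd, a gene of the ADAM protease family, with 15% over 2 intron sites and 46% over 2 exon sites.

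In the other direction, nAcRbeta-64B, a nicotinic receptor subunit gene on chromosome 3L, had 2 intron sites at positions 4431719 (86% and 89% in sets 1 and 2) and 4431761 (85% and 79%) beside 6 exon sites with a median of 59.5%. Its difference was 26.5 and 22.5 points in sets 1 and 2, 20 in FM7a males and 43.5 in yw males. In ADAR0 males these 2 sites were at 20% and 11%, in FM7a males at 80% and 83% and in yw males at 100% each. CG11155 had 3 intron sites with a median of 51% and 2 exon sites with a median of 27%, a difference of 29.5 and 17 points in the sets, but of -4 in FM7a males and -1.5 in yw males. l(1)G0196 had 35.5% over 4 intron sites and 15% over 3 exon sites, a difference of 18.5 and 22.5 points in the sets, of -2 in FM7a males and of 18 in yw males. Next were cac and CG42540, the last with 7.5 and 9 points in the sets, 1 in FM7a males and 7 in yw males. Of these 5 genes, nAcRbeta-64B and CG42540 kept the positive sign in both male pools.

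Grouped by function, the voltage-gated channels came to 10 genes with 111 intron sites and 92 exon sites, with medians of 18% and 36%. Intron medians were lower in both sets in 6 of the 10, near the 63.8% of all 58 genes, and higher in 3, namely cac, the calcium channel subunit gene stj and Ih, which encodes a hyperpolarization-activated channel. The median difference over the 10 genes was -4.75 points, beside -8.5 over all 58. In the synaptic vesicle release list, 7 of 8 genes were lower in both sets, beside 37 of all 58, and unc-13 was higher, with a median difference of -15.5 points over 51 intron and 24 exon sites. The ligand-gated receptor list had 5 genes, of which 3 were lower (nAcRalpha-30D, GluClalpha and gfA), a share near that of all 58, and nAcRbeta-64B was higher, with a median difference of -20 points. With so few genes a list, nothing particular to a list can be read from these counts. At nAcRalpha-34E, with 4 intron sites at a median of 35% and 10 exon sites at 37.5%, the sets gave -6 and 0 points.

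The other lists held at most 1 such gene each. They were norpA, the phospholipase C gene of phototransduction, with 12.5% over 2 intron sites and 6% at 1 exon site (listed at 100% in ADAR0, 0% in FM7a and 1% in yw males), Nckx30C among pumps and exchangers, and Pde1c, a phosphodiesterase gene, with 15% over 5 intron sites and 24% over 3 exon sites. Of the 15 genes chosen for a list of cell adhesion and cytoskeleton, 0 are among the 58. That list did not include CadN and Vinc, the N-cadherin and vinculin genes, which are among the 58.

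Intron sites mostly lay far from the exon sites of their gene. The distance to the nearest exon site had a median of 3307 bases, with quartiles of 1080 and 13192 bases and a range of 18 to 97751 bases. Only 6 intron sites lay within 200 bases, 71 (23.7%) lay within 1000 bases, and 87 (29.1%) lay beyond 10000 bases. These distances are to exon sites of the same entry, and a joined entry counts as a gene of its own. The joined entry CG14307/CG33541 shares the CG number of fru, CG14307. Its exon site at position 14323677 lies under 200 bases from fru intron sites at positions 14323739 and 14323743. These are counted here at 19822 and 19826 bases. Against exon sites of any entry the median distance was 3231 bases. The 299 intron sites referred to 90 different exon sites as their nearest. Between the outermost exon sites of the gene lay 109 intron sites, with a median level of 22%, and outside them lay 190, with a median of 15%. Genes with a single exon site can hold no intron site between, and most sites of Sh lay outside. These medians thus set partly different genes against each other.

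Among the 5 intron sites nearest to an exon site of the same entry, 4 had levels far from that of the exon site and 1 had a like level. The fru sites named above are left out of these by the entry rule. In Syt1, the intron site at position 2785524 on chromosome 2L lay 18 bases from an exon site. The intron site was at 1% in ADAR0, 13% in FM7a and 19% in yw males and at 22% and 17% in sets 1 and 2. That exon site, at position 2785542, was at 1% in ADAR0, 68% in FM7a and 72% in yw males and at 84% and 85% in the sets, so the pair stood far apart in every pool but ADAR0. In para, a site at 17% lay 119 bases from an exon site at 66% (positions 16399464 and 16399583). The Sh pair described above lay 157 and 159 bases from an exon site at 51%, 1 of its sites above and the other below that level. In alpha-Man-I, a mannosidase gene, the intron site at 12% lay 161 bases from an exon site at 17%, the closest levels of the 5 pairs.

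At the far end, an intron site of Pde1c lay 97751 bases from the nearest exon site, with levels of 15% and 62%. Next came 2 sites of mbl, the splicing regulator gene muscleblind, at 94644 and 92039 bases and at 20% and 13%, and 2 sites of nAcRalpha-30D at 73387 and 73373 bases and at 10% and 13%. All 5 were at 20% or less, and none of them was found in all 4 control male libraries, a count of 0. Of the 87 sites beyond 10000 bases, with a median level of 14%, 30 (34.5%) were so found, near the 31.1% of all 299. The 5 sites come from few genes, so nothing about far sites can be read from that count.

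Levels were higher within 1000 bases of an exon site than beyond, with a median of 23% at 71 sites in 29 genes against 16% at 228 sites in 47 genes. The difference was 5 points in each replicate set. It was 4 points without Sh, which supplied 24 of the 87 sites beyond 10000 bases, and it was also 4 points without X-linked sites. By class, the median was 15.5% up to 200 bases (6 sites), 23% at 200 to 500, 23.5% at 500 to 1000, 24% at 1000 to 2000, 20% at 2000 to 5000 and 14% in both classes beyond. Over the 299 sites, level and log10 distance were related by -0.20 as Pearson's r and -0.18 as Spearman's rho, and without Sh by -0.15 and -0.13. The sites share genes, libraries and nearest exon sites, so these are descriptions. Within the 18 genes that hold sites on both sides of 1000 bases, the near sites were higher in 8, lower in 9 and equal in 1, with a median difference of -0.5 points. The higher level near exon sites was thus not seen within those 18 genes.

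**Figure D3:**
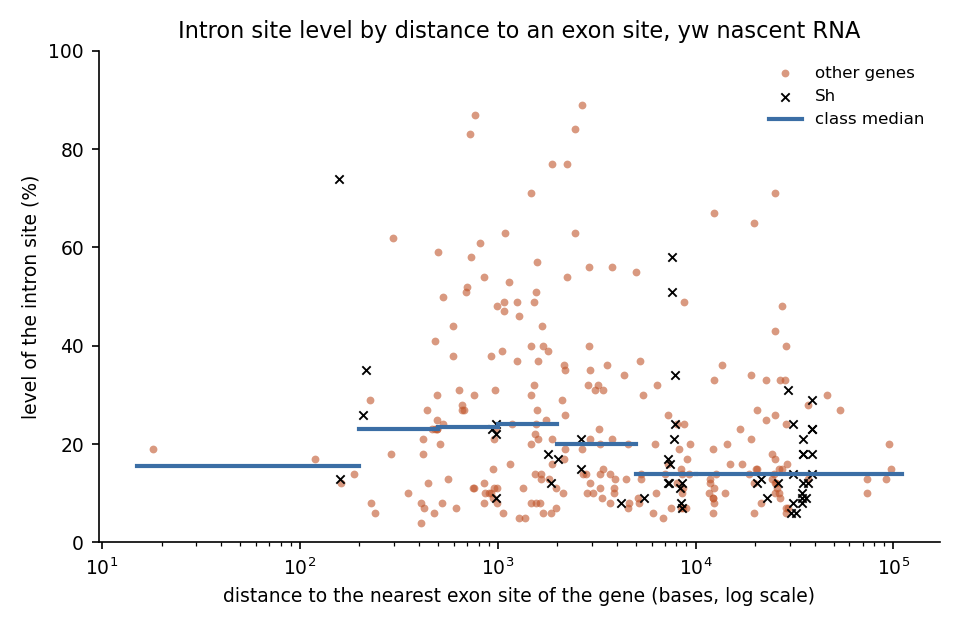
Editing level of each of the 299 intron sites in the pool of 12 yw light:dark libraries (vertical axis, percent) against its distance to the nearest exon site of the same gene (horizontal axis, bases, log scale). Crosses are the 52 sites of Sh, and bars are class medians, which run from 23% at 200 to 500 bases to 14% beyond 5000 bases.

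The intron sites lay closer to each other than to exon sites. Of the 284 with another intron site in the gene, 256 were nearer to an intron site than to any exon site, and the median spacing was 41 bases. In all, 151 of the 299 (50.5%) lay in groups with gaps of at most 50 bases, beside 43.5% of the intron sites in genes edited only in introns and 51.7% of the exon sites. There were 20 groups of 3 or more intron sites. The largest was in CG13739 on chromosome 2R, with 6 sites over 42 bases (positions 5231707 to 5231748) at 10% to 71% and a median of 21.5%. Next came 5 sites of Sh over 13 bases (positions 17885712 to 17885724) at 14% to 29%. A run of 4 para sites on consecutive bases (positions 16365844 to 16365847) had levels of 30%, 23%, 25% and 23%. Sites in groups had a median of 21% and sites alone 15%.

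Neighbouring bases could be edited at very different levels. Among 25 pairs of intron sites 1 base apart, in 14 genes, the levels differed by 1 to 70 points with a median of 14 points, and by more than 20 points in 9 pairs. The same site of the pair was higher in both replicate sets in 21 of the 25 pairs, and in 11 of these also in both control male pools. In CG13739 the pair at positions 5231745 and 5231746 had 71% and 17% in the pool of 12 libraries, 92% and 15% in FM7a males and 88% and 0% in yw males. In unc-13 the pair at positions 900121 and 900122 had 8% and 50%, with 3% and 45% in FM7a males and 3% and 43% in yw males. These 2 pairs were chosen after their values were seen. The 26 exon pairs 1 base apart in the same genes had a median difference of 23.5 points, 25 of them kept their order in both sets, 20 of these also in both control male pools, and 17 of the 26 differed by more than 20 points. Differences of that size were found in 36% of the intron pairs and 65.4% of the exon pairs, and this comparison was not tested. Reads that cover such a pair are largely shared, so the pair is measured in the same molecules.

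Editing at the intron sites was all but absent in ADAR0 males. The ADAR0 level was 0 at 268 of 295 intron sites (90.8%), near the 88.1% of all listed sites. Of the 295, 16 were above 2% and 4 were above 10%, beside 79 and 15 of the 1341 listed sites with an ADAR0 level. The highest of the 295 was 24%. The median was 0% in ADAR0, 7% in FM7a and 12% in yw males. At 202 of 294 sites ADAR0 lay below FM7a and at 6 it lay above, while 85 of the 86 ties were 0 in both strains. The median of ADAR0 minus FM7a was -7 points. ADAR0 was more than 10 points below FM7a at 122 sites, or 41.5%, against 52.5% of all listed sites, and more than 10 points above it at 1 site, against 0.225%. At the exon sites of the same genes the medians were 0% in ADAR0, 19% in FM7a and 23% in yw males.

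**Figure D4:**
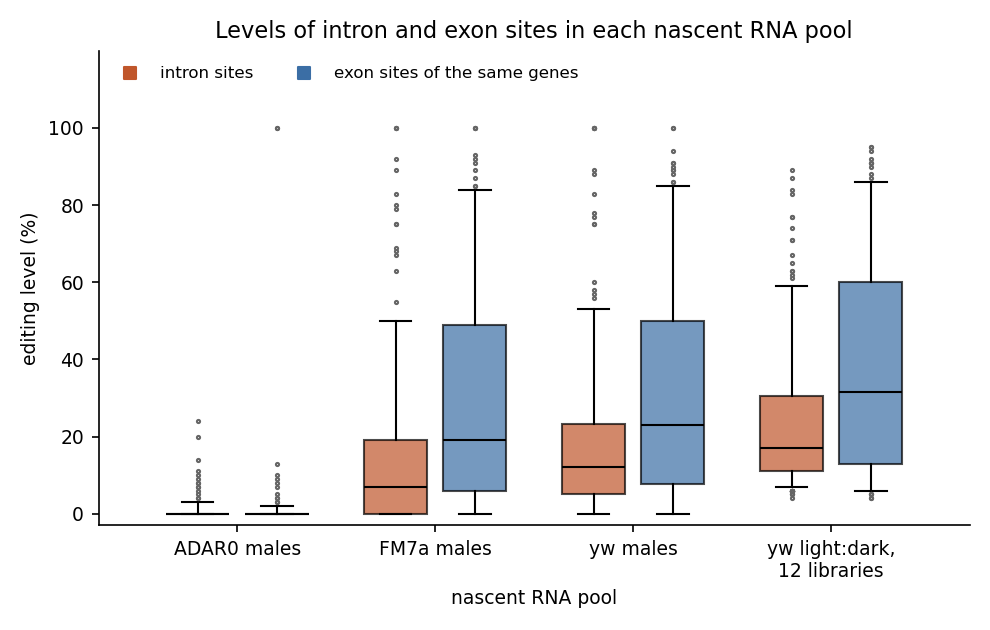
Editing levels in percent (vertical axis) of the intron sites and of the exon sites of the same genes in 4 pools of nascent RNA, as boxes from the first to the third quartile with the median as a line, whiskers to the 5th and 95th percentiles and points beyond. Intron medians were 0%, 7%, 12% and 17% in ADAR0, FM7a and yw males and yw light:dark heads, and exon medians were 0%, 19%, 23% and 31.5%.

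The 5 intron sites with the highest ADAR0 level were not alike. At CG42540 (chromosome 3L, position 4574917) ADAR0 was at 24%, FM7a at 5% and yw males at 3%, while the sets stood at 5% and 22%, a spread of 17 points between them. It is the 1 site more than 10 points above FM7a. Both nAcRbeta-64B sites were at 20% and 11% in ADAR0, as given above. A site of tutl, which encodes a neuronal immunoglobulin family protein (chromosome 2L, position 4305020), was at 14% in ADAR0, 100% in FM7a and 50% in yw males and at 54% and 57% in the sets. At Pde1c (chromosome 2L, position 11850705) the levels were 10% in ADAR0, 13% in FM7a and 1% in yw males and 16% and 14% in the sets.

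Between the control strains, 158 of 296 intron sites had a lower level in FM7a than in yw males, 89 had a higher level and 49 tied. The median of FM7a minus yw was -2 points. FM7a was more than 10 points lower at 72 sites, or 24.3%, against 22.5% of all listed sites, and more than 10 points higher at 32, or 10.8%, against 9.51%. The shares of intron sites were near those of all sites. This comparison shares the FM7a pool with the ADAR0 comparison. The median difference was -2 points both at the X-linked sites and at the others. Sites listed at 0 made up 30.9% of the intron sites in FM7a and 17.2% in yw males, beside 11.9% and 7.76% of the exon sites and 18.9% and 12.1% of all listed sites. Both control strains were at 0 at 34 of 296 intron sites and 5 of 227 exon sites. The same held at 80 of 1336 listed sites and at 25 of 426 intron sites in genes edited only in introns. The highest such site of the 34, in nAcRalpha-30D (chromosome 2L, position 9800126), had 84% and 70% in the light:dark sets.

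The largest deficits in FM7a were at CG11155 (chromosome 4, position 1154280), with 36% in FM7a and 100% in yw males, at Sh (position 17836482), with 0% and 60%, and at nAcRalpha-30D (position 9814356), with 25% and 83%. A second Sh site 20 bases away (position 17836462) had 0% and 57%, and CadN, the N-cadherin gene (chromosome 2L, position 17654573), had 0% in FM7a and 50% in yw males. Tied with CadN was a site of SK, a calcium-activated potassium channel gene (chromosome X, position 5276196), also at 0% in FM7a and 50% in yw males. In the other direction, nAcRalpha-30D (position 9818081) had 100% in FM7a and 25% in yw males, and the potassium channel gene slo (chromosome 3R, position 20518299) had 100% and 38%. The tutl site followed, then CG42629 (chromosome X, position 12969416) with 38% and 0% and Sh (position 17824975) with 50% and 15%. At these sites 1 strain or the other was often at exactly 0% or 100%, and the number of reads behind these values is unknown.

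Intron sites were found less often in all 4 control male libraries than exon sites of the same genes, by the authors' mark in the table. The mark was set for 93 of 299 intron sites (31.1%) and 141 of 232 exon sites (60.8%), against 45.1% of all listed sites and 33.0% of intron sites in genes edited only in introns. Among sites of 4% to 9% in the light:dark pool the share was 16.7% for introns and 16.7% for exons. At 10% to 19% it was 24.1% and 34%, at 20% to 39% it was 38.5% and 69.5%, and at 40% or more it was 50% and 83.9%. Sites of a gene are not independent, and the difference was not tested. Within each of the 3 upper classes of level the intron share was the smaller. The classes did not fully match the levels. Intron and exon medians were 13% each at 10% to 19%, 26% and 29% at 20% to 39%, and 54% and 67% at 40% or more. The part of read depth in the mark was not tested. In the light:dark libraries the deposited 5th percentile of the level over 12 libraries had a median of 12% for introns and 18% for exons at 20% to 39%, and of 36% and 56% at 40% or more.

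**Figure D5:**
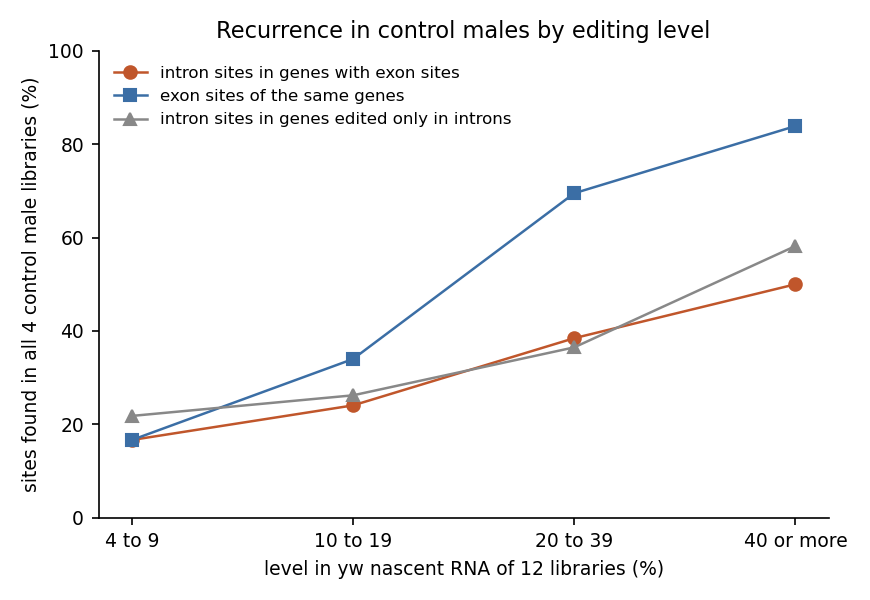
Percent of sites found in all 4 yw and FM7a male libraries (vertical axis) by class of editing level in the pool of 12 yw light:dark libraries (horizontal axis, percent), for the intron sites, the exon sites of the same genes and intron sites in genes edited only in introns. Intron and exon sites start at the same 16.7% and stand at 50% and 83.9% in the highest class, while intron sites of the other genes follow the lower line with 58.2% there.

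Beside intron sites in genes edited only in introns, the 299 sites had much the same levels. Their median was 17%, against 18% at the 430 others, a difference of -1 point in set 1 and 0 points in set 2. Upper quartiles were 30.5% and 28%. Levels of 50% or more were listed at 10% of the 299 and 6.74% of the 430. In FM7a males the medians were 7% and 11%, and in yw males 12% and 13%. Sites listed at 0 in FM7a made up 30.9% and 19.7%. These differences carry no test.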

How the data were processed

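The authors deposited editing levels as fractions from 0 to 1 in steps of 0.01, which were multiplied by 100 to give percent. Per the file headers the libraries of a group were pooled before a level was taken, and the 5th percentile was taken over 12 libraries. The genomic DNA coverage of each site is a deposited read count. TopHat, the base caller CASAVA (1.6, with 1.8 on male samples) and build dm3 are named per the submitters' processing notes. The site caller and read depth are not given in the sources used here. All coordinates are the deposited ones on dm3, and their first base may be numbered 0 or 1.

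Sites were joined to genes by CG number, and distances are differences of coordinates. A joined entry was kept apart from an entry that holds only 1 of its CG numbers, as with CG14307/CG33541 and fru (CG14307). Of the 58 entries, 54 matched the RefSeq table of the Release 6 assembly, used for names only. The calculations were done in Python 3.11.15 with pandas 2.3.3 and checked on simulated levels. The sites, gene lists and comparisons were chosen with earlier results of these data known. Named were the 10 genes with the most intron sites, the 5 largest gene differences each way, and the 5 sites highest in level, nearest, farthest, highest in ADAR0 and most different between FM7a and yw each way. They also took in list genes, as all of a list with 4 or fewer and otherwise the 3 with the most intron sites. Other genes of a list were named after their values were seen. No p-value was computed, because each male group has 1 pooled level and the light:dark group 2 sets.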

Additional observations from a re-analysis of the deposited data

Results flagged for a closer look

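At 6 genes the difference between introns and exons had 1 sign in both light:dark replicate sets and the opposite sign in both control male pools. Whether the difference itself departs from chance was not tested, and 3 of these genes, Ih, oc and vav, have 1 intron and 1 exon site. The intron minus exon difference in males (mean of FM7a and yw), minus that in light:dark heads (mean of the sets), was -35.5 points at cac, -26 at CG11155, -15.5 at Ih, 33.5 at fry, 46 at oc and -38 at vav. At vav the intron site was at 0% in FM7a and 33% in yw males and at 65% and 59% in the sets, and the exon site at 36% and 38% in the males and at 54% and 35% in the sets. The exon site of oc, a homeobox gene, was listed at 0 in both male pools and at 47% and 40% in the sets. The intron site of Ih was listed at 0 in both male pools. At fry the intron site was at 50% in both male pools. At cac, CG11155, Ih, fry, oc and vav the read depth behind these levels is unknown, and its part was not tested.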

How the results depend on the processing

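The intron minus exon difference in the light:dark pool (-8.5 points) stayed negative under every alternative run. It was -11 without sites above 2% in ADAR0, -16 at sites found in all control male libraries, -4.25 with genomic coverage of 30 or more, -8 without joined entries, -8 without Sh, -8 without X-linked sites, -11.5 with means, -14.5 over sites regardless of gene, -1 against the nearest exon site, -0.5 without exon sites that have an mRNA level, and -9.75 to -9.25 in single sets. That last exon choice gave -1 in yw males and -2 in FM7a males, against -7.25 and -10, and 18 of the 47 genes left lower in both sets in place of 37 of 58, with 10 of the 37 among the 11 genes lost. Genes with 2 or more sites of each kind gave -12.25 in yw males and 22 of 34 genes lower (64.7%, beside 63.8%), and sites found in all control male libraries gave 18 of 25 (72%), so these counts are smaller because fewer genes are left. ADAR0 minus FM7a (-7) was -18 at sites found in all control male libraries, -13 without sites at 0 in FM7a, -13.7 as a mean and -12 against yw males. Sites more than 20 points lower in ADAR0 numbered 65 in place of 122. FM7a and yw differed by more than 10 points at 104 sites, by more than 5 at 169 and by more than 20 at 46. Shares over all listed sites were taken at 10 points only. The counts at 5 and 20 points, for ADAR0 too, therefore show nothing particular to intron sites. The near minus far difference (7) was 2 at 500 bases, 8 at 2000, 5 in either set, 5.5 without the 10 genes with the most intron sites, 4 without Sh, 4 without X-linked sites and -0.5 within genes. The difference from other intron sites (-1) was 0 with coverage of 30 or more, 0 without the 10 genes, -1 to 0 in single sets, 1 without Sh and -2 without X-linked sites. The share found in all control males (31.1%) was 24.1%, 38.5% and 50% in the 3 upper classes of level. The causes were not tested, apart from fewer sites or genes where an alternative leaves some out. The remaining 46 of 87 alternative values moved by less than a set limit. This was the spread between the light:dark sets, the 95% interval of a share or, for counts and distances, 1.5 times. For differences in males it was 4.24 points, the SD of a single site's level between the light:dark sets. That is not a replicate spread of the male pools or of a median, so it does not measure how steady the male results are. FM7a minus yw (-2), for example, ran from -4 to 0 within it. The alternatives without Sh, without X-linked sites, with the nearest exon site, within genes and by class of level were chosen after seeing the data. No paired analysis was possible because each male pool merges its 2 libraries into 1 level and no test was run.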
